A study of Mus musculus with 4 samples.

Results

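Recruited monocyte identity and Ly6 genes were taken as 10 genes named by symbol: Ly6c2, Ly6c1, Ly6a, Ly6e, Plac8, Ms4a4c, Vcan, Fn1, Cx3cr1 and Ace. Of these, 9 had a probe set carrying their symbol alone, among 22180 genes on the array with such a probe set. No probe set was named for Ly6a by the annotation used, and it was not analysed here. A log2 level of 6 or more in at least 1 array was reached by 8 of the 10, against 5306 of all genes, and Ly6c1 stayed below it.

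The levels came from hepatic macrophages of C57/BL6 mice, sorted at 48 h of reperfusion, when blood had returned to an ischaemic liver. The design names 10 wild-type (WT) mice and 10 mPGES-1-/- mice, the latter lacking by label the inducible prostaglandin E synthase encoded by Ptges (labelled KO). Both were split into Ly6C-hi and Ly6C-low cells, and 1 array was run for each of the 4 combinations. How many mice stand behind an array was not given in the sources used here, nor were the cells the deletion covers and the other antigens of the gate. Values are RMA log2 levels of GeneChip Mouse Gene 2.0 ST probe sets, so a difference of 1 is 2-fold, and levels of different genes cannot be set against each other.

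Inflammatory (classical) monocytes leave the bone marrow through the chemokine receptor Ccr2 and enter injured tissue carrying Ly6C on their surface. Over days they lose Ly6C and turn into macrophages, while patrolling (non-classical) monocytes carry little Ly6C and much of the fractalkine receptor Cx3cr1. The Ly6 proteins are small cysteine-rich proteins held to the membrane by a lipid anchor. The antibody epitope called Ly6C is encoded by Ly6c1 and Ly6c2, so the gate itself selects on them, and their difference between the fractions is described without a test.

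Several features of the 4 arrays bear on every value that follows. In the Ly6C-hi arrays Ptges read 5.65 for WT and 6.32 under the KO label, and the Ly6C-low pair read 5.69 and 6.20. As measured, Ptges was thus higher under the KO label in both fractions, opposite to the label, and where its probes lie relative to the deletion is not given. The median of the 5306 genes was 6.67 (WT Ly6C-hi), 6.36 (WT Ly6C-low), 6.17 (labelled KO Ly6C-hi) and 6.55 (labelled KO Ly6C-low), and this is the order of arrays wherever 4 values are listed. Differences are given as deposited, and where it matters also with each array centred on that median. As a guide to background, the 97.5th percentile of 1394 odorant and vomeronasal receptor genes was 5.33, 5.98, 6.09 and 5.54 in the same order. Ptges was below this guide in WT Ly6C-low and not far above it in both Ly6C-hi arrays. Its difference between the labels thus rests on readings near background and does not settle the label. Of genes of the monocyte and macrophage lineage, Lyz2, Adgre1 and Fcgr1 lay above the guide in all 4 arrays. They were chosen after their values were seen. Lyz2, the myeloid lysozyme, read between 9.11 and 9.36. Adgre1, which encodes F4/80, read between 7.77 and 8.53, and Fcgr1, the high-affinity IgG receptor, between 7.74 and 8.27. Of 25 other classical monocyte genes measured, Lyz2 and Fcgr1 included, 21, 18, 22 and 18 were above the guide in the same order. Of 11 measured Kupffer cell markers, Adgre1 included, 4, 7, 2 and 7 were.

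Markers of other cells differed between the fractions. Of 17 neutrophil markers, 15, 6, 10 and 4 were above the guide of the respective array, with mean levels of 9.38, 5.76, 7.16 and 5.26 over the 13 that reached 6. Of 17 endothelial markers, 7, 16, 1 and 17 were above the guide in the same order, with mean levels of 5.12, 8.15, 4.45 and 9.63. The 2 fractions thus differed in neutrophil and endothelial transcripts as well as in Ly6C, and the part of these cells in the results below was not tested. Kupffer cell, hepatocyte and stellate cell markers were lower in Ly6C-hi by limma for 2 of 7, 3 of 10 and 2 of 3 genes tested, with 0 genes higher. Over all 5306 genes, 2.6% were higher and 4.17% lower by this test. Of the NK, B, plasmacytoid and conventional dendritic cell markers, 1, 2, 2 and 2 were tested and 0 passed. None of 8 measured T cell markers was above the guide in any array. In such bulk samples, fewer cells of a type and less RNA per cell cannot be told apart.

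Ly6c2 encodes the main Ly6C antigen of inflammatory monocytes and lies at chr15:75108161-75112066 (GRCm38.p6, minus strand). For WT it stood at 7.70 in Ly6C-hi cells and 3.84 in Ly6C-low cells, and under the KO label at 8.94 and 4.33. Both Ly6C-hi arrays were high and both Ly6C-low arrays were below the background guide. The fraction difference was 3.87 in WT and 4.61 under the KO label. Since the Ly6C-low arrays give only an upper limit, Ly6C-hi was at least 3.29-fold higher in WT and at least 10.5-fold higher under the KO label, taking the guide as the Ly6C-low level. As the gate selects on this antigen, the values describe the sort.

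Of the other Ly6 genes on chromosome 15, Ly6a2 read most like it. The promoters of Ly6c2, Ly6a2 and Ly6c1 are shown because the 3 genes are close copies, of which Ly6c2 and Ly6a2 were above the guide in the Ly6C-hi arrays and Ly6c1 in none. Each line holds the 250 bases before an annotated start, 5′ to 3′ on the gene's (minus) strand, from RefSeq (GRCm38.p6). Capitals mark the letters GAGGAAGT, the core bound by the myeloid factor PU.1. The windows are chr15:75111972-75112221 for Ly6c2, chr15:75135129-75135378 for Ly6a2 and chr15:75048838-75049087 for Ly6c1.
Ly6c2: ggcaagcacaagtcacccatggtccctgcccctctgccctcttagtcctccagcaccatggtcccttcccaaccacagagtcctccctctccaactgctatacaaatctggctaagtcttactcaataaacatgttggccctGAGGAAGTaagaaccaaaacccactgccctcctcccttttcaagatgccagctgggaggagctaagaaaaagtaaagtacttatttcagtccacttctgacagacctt
Ly6a2: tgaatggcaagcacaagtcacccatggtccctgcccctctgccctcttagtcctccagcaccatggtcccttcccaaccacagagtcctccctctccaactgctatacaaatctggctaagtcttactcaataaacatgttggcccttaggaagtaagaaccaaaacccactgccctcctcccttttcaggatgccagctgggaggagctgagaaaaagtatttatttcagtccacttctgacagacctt
Ly6c1: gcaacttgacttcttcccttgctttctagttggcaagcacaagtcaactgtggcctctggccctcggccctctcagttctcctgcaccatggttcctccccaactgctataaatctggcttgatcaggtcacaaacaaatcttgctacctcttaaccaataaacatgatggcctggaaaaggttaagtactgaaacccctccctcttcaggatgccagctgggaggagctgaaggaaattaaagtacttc

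Over 245 aligned bases the Ly6c2 and Ly6a2 windows shared 242, or 98.8%. The substitutions from Ly6c2 to Ly6a2 were G143T, A185G and A206G, counted from 1 at the 5′ end of the printed Ly6c2 window, and runs of 3 and 2 bases in Ly6c2 had no partner in Ly6a2. G143T falls on the first base of the PU.1 core letters, at position -108 from the start, and the Ly6a2 window holds no match to them. The Ly6c1 window shared 170 of 210 aligned bases with that of Ly6c2 (81.0%). A second annotated start of Ly6c1 has GAGGAAGT at -127 to -120. The letters occur in 2.44% of 32851 promoter windows, on either strand, and a match is a description of the sequence only.

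Ly6a2 (chr15:75131292-75135128) read 6.87, 5.38, 8.51 and 5.20. Both Ly6C-hi arrays were above both Ly6C-low arrays, which were below the guide, as for Ly6c2, and the labelled KO Ly6C-hi array was again the highest. Averaged over the labels, limma put Ly6a2 2.40 ± 0.521 higher (log2, SE) in Ly6C-hi, with an adjusted p of 0.00018. Where a fraction was below the guide, as here, such an average is a fitted value and not the size of the change. Signal shared between such close copies was not tested.

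Ly6c1 (chr15:75044018-75048920), the second Ly6C gene and one also known from endothelial cells, read 3.26, 2.45, 3.03 and 2.89 in the same order. All 4 values were below the guide, so no fold is given and their order carries no information. Ly6e (chr15:74955025-74959904), an interferon-induced Ly6 protein found on many cell types, read 11.03, 10.50, 10.96 and 10.53. The Ly6C-hi arrays were the higher for Ly6e under both labels, by 0.53 in WT and 0.43 under the KO label. The averaged difference of 0.48 ± 0.272 (SE) did not pass limma (adjusted p = 0.446). Between the labels Ly6e differed by -0.07 (Ly6C-hi) and 0.03 (Ly6C-low), and both signs turned when the arrays were centred (0.44 and -0.16).

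The Ly6 cluster was taken as the 15 genes of chromosome 15 whose symbol opens with Ly6 and a letter, leaving out relatives with other names. Of these, 13 had a probe set, 4 reached a level of 6 (Ly6e, Ly6c2, Ly6a2 and Ly6g) and 9 were never above the guide. Ly6g, the neutrophil Ly6 antigen, read 6.45 in WT Ly6C-hi and 5.18 in labelled KO Ly6C-hi, opposite in order to Ly6c2, and 4.31 and 4.01 in the Ly6C-low arrays. The averaged fraction difference of Ly6g did not pass (1.66 ± 1.02, SE, adjusted p = 0.506). Among 24 measured relatives of the Ly6 family beyond the 10 genes, 5 were tested, and 2 passed limma as higher in Ly6C-hi and 2 as lower. Higher were Ly6a2 and the urokinase receptor Plaur (2.08 ± 0.411, SE, adjusted p = 2.4e-05). Lower were the complement inhibitor Cd59a (-4.32 ± 0.514, SE, adjusted p = 1.57e-14) and Gpihbp1, which carries lipoprotein lipase on capillary endothelium (-3.80 ± 0.495, SE, adjusted p = 4.32e-12). Over all 5306 genes, 2.6% passed as higher and 4.17% as lower. Gpihbp1 read 5.75, 8.82, 5.20 and 9.72, highest in the arrays in which the endothelial markers were highest.

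**Figure D1:**
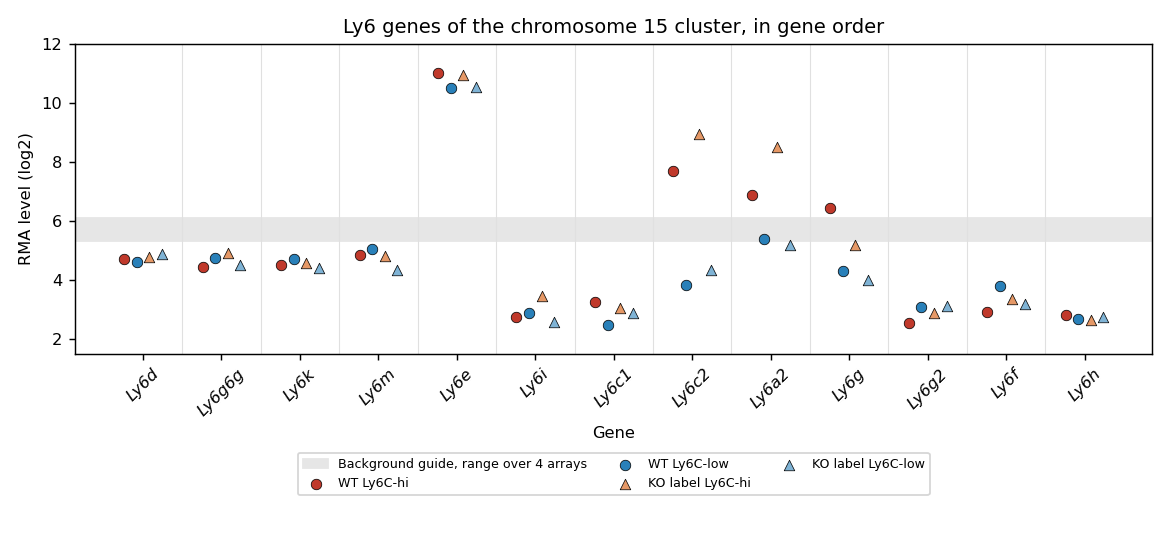
RMA log2 level (vertical axis) of 13 Ly6 genes of the chromosome 15 cluster, in gene order (horizontal axis), 1 point per array, with the grey band spanning the background guide of the 4 arrays. Ly6c2 and Ly6a2 have both Ly6C-hi points above both Ly6C-low points, Ly6e lies between 10.50 and 11.03 in all arrays, and Ly6c1 lies below the band throughout.

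Plac8, Ms4a4c and Vcan are genes commonly used to mark the classical monocyte. They lie at chr5:100551589-100572253, chr19:11404717-11427246 and chr13:89655309-89743027 (GRCm38.p6). Plac8, a small cysteine-rich intracellular protein, read 8.61 and 7.45 in the WT pair (Ly6C-hi, then Ly6C-low) and 9.55 and 7.44 in the labelled KO pair. The Ly6C-low arrays lay within 0.01 of each other, and both Ly6C-hi arrays were above them. The fraction difference was 1.16 (2.24-fold) in WT and 2.10 (4.30-fold) under the KO label. Plac8 rose with Ly6C in the averaged fit, by 1.63 ± 0.448 (log2, SE), with a limma adjusted p of 0.0068. This call was lost when no floor was set on the level (adjusted p = 0.263) and when the label was left out of the model (adjusted p = 0.0579).

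Ms4a4c, a 4-pass membrane protein of the Ms4a family, followed the same order of arrays. It read 6.93, 6.18, 7.90 and 6.16. The fraction difference was 0.75 in WT and 1.74 under the KO label (1.69-fold and 3.34-fold). The average of 1.25 ± 0.514 (SE) did not pass limma as deposited (adjusted p = 0.155). It passed with the arrays centred (0.0393), quantile normalised (0.0371) or lowess normalised (0.0184).

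Vcan, which encodes the matrix proteoglycan versican, was dimmer. It read 5.79 and 4.72 in the WT pair (Ly6C-hi, then Ly6C-low) and 6.17 and 4.25 in the labelled KO pair. Both Ly6C-hi arrays were just above their own background guide and both Ly6C-low arrays were below theirs. Under the KO label Vcan was at least 1.54-fold higher in the Ly6C-hi array, while for WT the dim array's guide lay above both values, so no fold is given. The averaged difference of 1.50 ± 0.845 (SE) did not pass limma (adjusted p = 0.436).

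**Figure D2:**
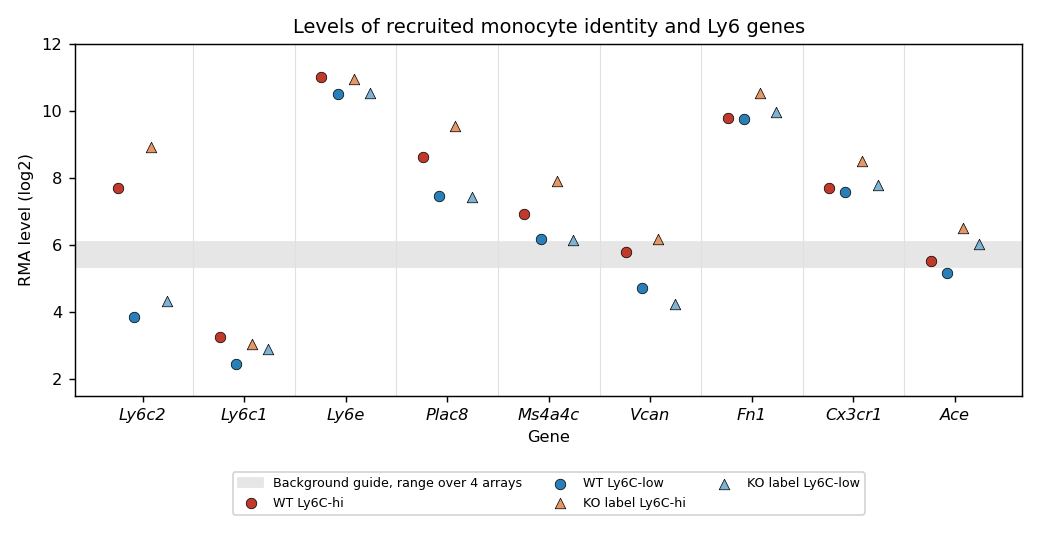
RMA log2 level (vertical axis) of the 9 measured genes (horizontal axis), 1 point per array, with circles for WT, triangles for the KO label, red and orange for Ly6C-hi, blue for Ly6C-low and a grey band for the range of the background guide. Ly6c2, Plac8, Ms4a4c and Vcan separate by fraction, and the labelled KO Ly6C-hi array is the highest for every gene except Ly6e and Ly6c1.

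For Fn1, Cx3cr1 and Ace the fractions overlapped. These genes lie at chr1:71585473-71653280, chr9:120048683-120068296 and chr11:105967948-105989964 (GRCm38.p6). Fn1 encodes the matrix glycoprotein fibronectin, made by macrophages, hepatocytes and stromal cells alike. It read 9.80, 9.76, 10.54 and 9.96. The labelled KO Ly6C-hi array stood above the other 3. In WT the fraction difference was 0.04, and it turned to -0.27 with the arrays centred and -0.05 with quantile normalisation.

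Cx3cr1, the fractalkine receptor that is typically highest on patrolling monocytes, read 7.71, 7.58, 8.51 and 7.78 in that order. It was not higher in the Ly6C-low arrays as deposited. The fraction difference was 0.13 in WT, where it turned to -0.18 on centring and -0.11 with quantile normalisation, and 0.73 under the KO label. The average of 0.43 ± 0.470 (SE) did not pass limma (adjusted p = 0.847). Of its partners, the ligand Cx3cl1 was below the guide in all arrays (3.86 to 4.22), and the ligand-cutting proteases Adam10 and Adam17 were measured with 0 of 2 passing for the fraction. Among the 5306 genes, 2.6% passed as higher and 4.17% as lower.

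Ace encodes angiotensin-converting enzyme, a peptidase of endothelium that is also found in patrolling monocytes. It read 5.52 and 5.16 in the WT pair (Ly6C-hi, then Ly6C-low) and 6.50 and 6.02 in the labelled KO pair. The 2 arrays under the KO label were both above the 2 WT arrays, of which WT Ly6C-low was below the guide. The mean of the endothelial markers was 5.12, 8.15, 4.45 and 9.63 in the usual order, and the part of endothelial cells in the Ace values was not tested. Of 12 measured renin-angiotensin genes 4 were tested for the fraction, with 0 higher in Ly6C-hi and 1 lower, the aminopeptidase Enpep (-2.71 ± 0.739, SE, limma adjusted p = 0.0064). Among the 5306 genes, 2.6% were higher and 4.17% lower. Angiotensinogen (Agt) was below the guide, between 4.82 and 4.98, in all arrays.

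Read over the fractions, 2 of 6 genes at a level of 6 or more in WT had 2-fold or more in favour of Ly6C-hi (Ly6c2 and Plac8), and 0 the reverse. In WT 20.3% of 4762 genes were that much higher and 6.57% lower. Under the KO label the measured difference was 2-fold or more for 4 of 8 (Ly6c2, Plac8, Ms4a4c and Vcan) and 0 lower, where 4.47% of 4541 genes were higher and 20.7% lower, also as measured. For Vcan the guide supports only at least 1.54-fold, and Vcan reached a level of 6 in the labelled KO Ly6C-hi array only. Plac8 ranked 14 and Ms4a4c 27 by size under the KO label. With the arrays centred, the counts were 1 of 6 in WT (13% of genes higher, 11.7% lower) and 5 of 8 under the KO label (12.3% higher, 11.7% lower), the added gene being Cx3cr1 at 1.11. Each count of higher genes among the 6 or 8 includes Ly6c2, which the gate selects on and which describes the sort. In WT with the arrays centred, Ly6c2 was the only gene counted.

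Both Ly6C-hi arrays were above both Ly6C-low arrays for 5 of the 8 genes (Ly6c2, Ly6e, Plac8, Ms4a4c and Vcan), and for 20.9% of the 5306 genes. The same 5 genes kept this order with the arrays centred, where it held for 26.9% of genes. The gate selects on Ly6c2. As deposited, Ly6c2 and Vcan reached the level needed to be counted only in Ly6C-hi arrays. Their order was thus in part set in advance, and the count of 5 is not free of the sort. Ly6e, Plac8 and Ms4a4c reached that level in all arrays. By limma, over both labels, Plac8 was the 1 that passed as higher in Ly6C-hi of the 7 genes other than Ly6c2, and 0 passed as lower, against 2.6% and 4.17% of the 5306 genes. The fit has 1 residual degree of freedom, the label by fraction difference, which is taken as noise and had a median of -0.67 over the 5306 genes. As deposited, limma took the SE from the trend across genes, with infinite prior degrees of freedom, and not from a gene's own residual. No spread between repeat arrays of a group enters these p-values.

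**Figure D3:**
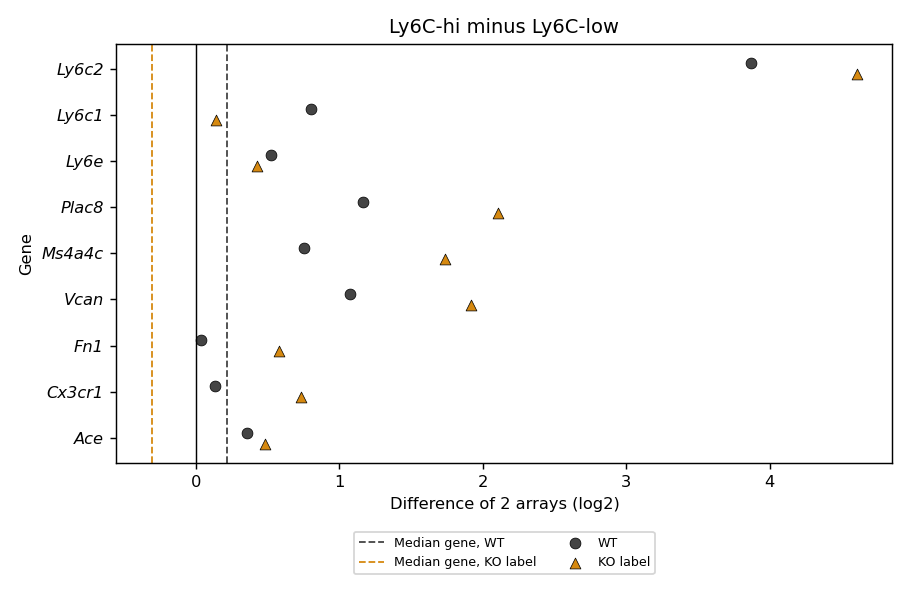
Ly6C-hi minus Ly6C-low (horizontal axis, log2 difference of 2 arrays) for the 9 measured genes (vertical axis), circles for WT, triangles for the KO label and dashed lines for the median of the 5306 genes in each (0.22 and -0.31). The triangle lies to the right of the circle for every gene but Ly6e and Ly6c1, and the distance is near 1 for Plac8 and Ms4a4c.

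Set between the labels in the Ly6C-hi arrays, the labelled KO array was the higher for 7 of 8 genes, whereas the median gene differed the other way. The difference was 1.23 for Ly6c2 (2.35-fold), 0.93 for Plac8 (1.91-fold), 0.97 for Ms4a4c (1.96-fold) and 0.37 for Vcan (1.30-fold). Fn1 differed by 0.74 (1.67-fold), Cx3cr1 by 0.80 (1.74-fold) and Ace by 0.99 (1.98-fold), while Ly6e is given above. The median over the 8 was 0.87, against -0.47 over the 5306 genes. At least 2-fold higher was 1 of 8 (Ly6c2), with 2.34% of 4410 genes higher and 20.6% lower.

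Several of these differences lay just under 2-fold, and the scaling of the arrays decided on which side they fell. With the arrays centred, 6 of 8 were at least 2-fold higher in labelled KO Ly6C-hi, with 8.07% of genes higher and 6.53% lower. Those were Ly6c2 (1.74), Ace (1.49), Ms4a4c (1.47), Plac8 (1.44), Cx3cr1 (1.31) and Fn1 (1.24). As deposited, 96.8% of 4410 genes had a smaller difference than Cx3cr1, 97.4% than Plac8 and 98.3% than Ly6c2. The labelled KO Ly6C-hi array was the highest of the 4 for 7 of 8 genes as deposited, where it was highest for 7.84% of all 5306 genes, and for 8 of 8 after centring, where it was for 24.4%. Vcan reached a level of 6 in that array only, and Ace in the labelled KO arrays only. Both were thus admitted to the 8 by those arrays.

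In the Ly6C-low arrays the labels differed less. Of 6 genes at a level of 6 or more, 0 were at least 2-fold higher or lower under the KO label, with 6.89% of 4444 genes higher and 0.81% lower (4.56% and 2.15% with the arrays centred). Plac8 differed by -0.01 and Ms4a4c by -0.02, and the sign for Plac8 turned with lowess (0.04). Fn1 differed by 0.20 and Cx3cr1 by 0.20. Ace had the largest value of the 6, 0.86, which is at least 1.03-fold given the guide of the WT array.

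Both labelled KO arrays were above both WT arrays for Fn1, Cx3cr1 and Ace, 3 of 8 genes, and for 3.54% of the 5306 genes. The same 3 were in this order after centring, when 8.27% of genes were. As deposited, Ace reached the level needed to be counted only in the labelled KO arrays, and its WT Ly6C-low reading was below the guide. Its order was thus in part set by how the 8 were admitted. Fn1 and Cx3cr1 reached that level in all arrays. None of the 8 passed limma for the label (adjusted p = 0.9999 for each), where 0.0188% of the 5306 genes passed as higher and 0.302% as lower. The smallest unadjusted limma p-values among the 8 were 0.108 for Ly6c2, 0.128 for Ace and 0.150 for Fn1, and 164 of 5306 genes had one under 0.05. The averaged label differences were 0.86 ± 0.538 for Ly6c2, 0.92 ± 0.606 for Ace and 0.47 ± 0.324 for Fn1 (log2, SE).

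**Figure D4:**
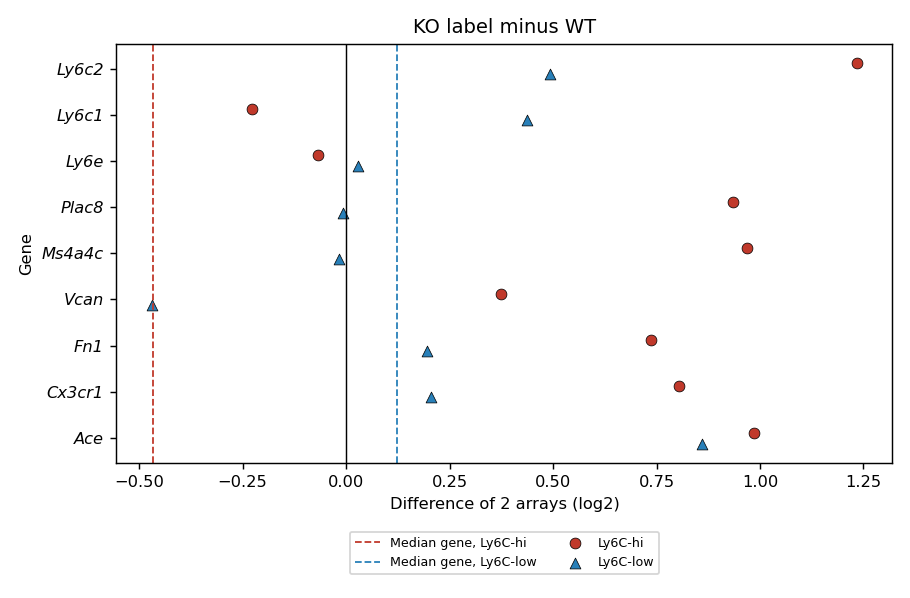
KO label minus WT (horizontal axis, log2 difference of 2 arrays) for the 9 measured genes (vertical axis), circles for Ly6C-hi, triangles for Ly6C-low and dashed lines for the median of the 5306 genes in each fraction (-0.47 and 0.12). All circles lie right of their dashed line, and the triangle lies close to the circle for Ace (0.86 and 0.99) and for Ly6e (0.03 and -0.07).

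The fraction difference under the KO label minus that in WT was above 0 for 7 of 8 genes, with a median of 0.67 against -0.67 over the 5306 genes. As measured, it was 0.74 for Ly6c2, 0.94 for Plac8, 0.99 for Ms4a4c, 0.84 for Vcan, 0.54 for Fn1, 0.60 for Cx3cr1 and 0.13 for Ace. Ly6e stood at -0.10, and at 0.60 with the arrays centred. None reached 1, where 3.09% of genes were at least 1 above 0 and 32% at least 1 below. With the arrays centred 6 of 8 did, with 12.3% of genes above and 8.04% below. Ly6c2 and Vcan were below the guide in both Ly6C-low arrays, and Ace in the WT one, so their values here rest in part on background readings. Of the 5 genes above the guide in all 4 arrays, 4 were above 0. This quantity leaves no residual in a 4-array design and has no test.

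Further genes of the classical monocyte were tested across the fractions. Of 22, 8 passed limma as higher in Ly6C-hi and 0 as lower, where 2.6% and 4.17% of the 5306 genes did. The median difference was 1.05 against -0.02 over all genes. The largest were Mcemp1, a mast cell and myeloid membrane protein (2.83 ± 0.516, SE, adjusted p = 2.84e-06), and Clec4e, the receptor Mincle (2.80 ± 0.369, adjusted p = 7.53e-12). Clec4d, a related lectin, and Chil3, the chitinase-like protein Ym1, also passed (2.32 and 2.31, with adjusted p of 4.63e-05 and 0.00045). Some of these are made by neutrophils too, and 11 of 13 neutrophil markers tested were higher in Ly6C-hi by the same test.

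In the Ly6C-hi arrays 0 of 22 other classical monocyte genes were at least 2-fold higher under the KO label and 5 were lower, with a median of -0.06, where 2.34% of all genes were higher and 20.6% lower. Relative to the median gene, 4 were at least 2-fold higher and 5 lower. Clec4d read 10.36 in WT Ly6C-hi and 7.71 in labelled KO Ly6C-hi, Cd14, the endotoxin co-receptor, 10.15 and 7.98, and Thbs1, thrombospondin 1, 10.76 and 8.85. These were the 3 largest differences of the list. For the averaged label, 2 of 22 passed limma, both lower, Clec4d (-1.95, adjusted p = 0.0162) and Thbs1 (-1.48, adjusted p = 0.0435). Over all 5306 genes, 0.0188% passed as higher and 0.302% as lower for the label. Neutrophil markers were lower in the same array, with 12 of 13 at least 2-fold lower (8 of 13 relative to the median gene) and a median of -1.99, and their part in the list's values was not tested.

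Ccr2, the receptor that brings classical monocytes into tissue, was higher under the KO label in both fractions. It read 8.28 and 7.48 in the WT pair (Ly6C-hi, then Ly6C-low) and 9.06 and 7.78 in the labelled KO pair. The labelled KO Ly6C-hi array was the highest. Between the labels the averaged difference of Ccr2, 0.54 ± 0.455 (SE), did not pass limma (adjusted p = 0.9999). The median of this difference over the 22 genes of its list was -0.19. The averaged fraction difference of Ccr2 did not pass either (1.04 ± 0.455, SE, limma adjusted p = 0.204).

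**Figure D5:**
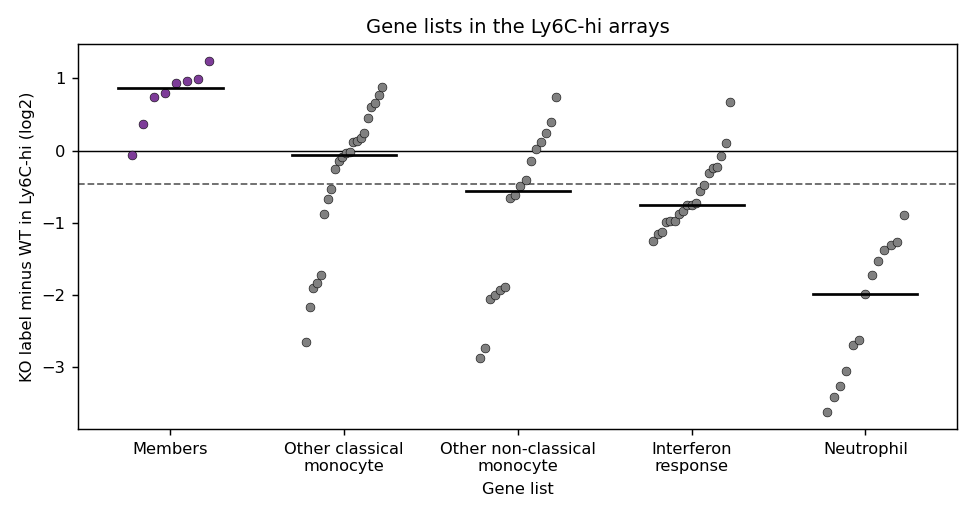
KO label minus WT in the Ly6C-hi arrays (vertical axis, log2 difference of 2 arrays) for the 8 measured genes at a level of 6 or more and for 4 other gene lists (horizontal axis), 1 point per gene in order of size, with bars for list medians and a dashed line for the median of the 5306 genes (-0.47). The medians are 0.87 for the 8 genes, -0.06 for other classical monocyte genes, -0.56 for non-classical ones, -0.76 for interferon response genes and -1.99 for neutrophil markers.

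Other genes of the patrolling monocyte were tested beside Cx3cr1 and Ace. Of 16, 1 passed limma as higher in Ly6C-hi, Nr4a1, the nuclear receptor on which patrolling monocytes depend (1.78 ± 0.410, SE, adjusted p = 0.00053). Lower were Fabp4, a fatty acid carrier (-3.27, adjusted p = 6.75e-13), and Cd36, a scavenger receptor (-2.03, adjusted p = 6.79e-05), both also made by endothelium. Over all 5306 genes, 2.6% passed as higher and 4.17% as lower. The integrin chain Itgal, part of LFA-1, read 7.70, 6.25, 7.82 and 6.64 and did not pass. Under the KO label in Ly6C-hi, 0 of 16 were at least 2-fold higher and 6 lower (2.34% and 20.6% of all genes), or 1 and 6 relative to the median gene. Of 12 monocyte transcription factors, Nr4a1 was the 1 higher in Ly6C-hi and Maf, a factor of resident macrophages, the 1 lower (-1.86 ± 0.530, SE, adjusted p = 0.0101). Maf read 5.88, 6.83, 4.87 and 7.65, higher in the arrays in which the endothelial markers were higher. The part of endothelial cells in the Maf values was not tested.

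Interferon response genes, the usual company of Ly6e, had 0 of 22 higher and 2 lower in Ly6C-hi by limma. Over all 5306 genes, 2.6% were higher and 4.17% lower by this test. The 2 lower interferon response genes were the GTPases Iigp1 (-3.03, adjusted p = 6.88e-06) and Gbp4 (-2.76, adjusted p = 0.0095). In the Ly6C-hi arrays 0 of 19 were at least 2-fold higher under the KO label and 3 were lower, with a median of -0.76, beside 2.34% and 20.6% of all genes. Relative to the median gene the counts were 1 higher and 0 lower. Among receptors and processing enzymes of versican and fibronectin, 1 of 9 passed as higher in Ly6C-hi, the hyaluronan receptor Cd44 (1.61 ± 0.466, SE, adjusted p = 0.0122), and 0 as lower. The fibronectin receptor chain Itga4 read 9.18, 8.31, 9.20 and 7.96 and did not pass (adjusted p = 0.134).

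Patterns across the 4 arrays were compared by the root mean square difference of levels after each gene's own mean was taken off, among 5009 genes. The measure rests on 4 arrays of which each gene has 1 value, and describes likeness only, and for Ly6c2, Vcan and Ace it includes readings below the guide. Plac8 was nearest to Ms4a4c (0.19), Arhgef37 (0.24) and Vcan (0.27). Ms4a4c was nearest to Arhgef37 (0.16), Ccr2 (0.17) and Ms4a6b (0.19), and Vcan to F10 (0.18), Coro1a (0.19) and F13a1 (0.20).

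Ly6c2 was nearest to Ly6a2 (0.96), followed by Mcemp1 and Chil3 (1.04 each). The measure is not scaled to a gene's range, which was 5.10 for Ly6c2, so these distances cannot be set against those of other genes. Ace was nearest to Erdr1 (0.10), Hspa1a (0.13) and Ext1 (0.14). Hspa1a, the stress-induced heat shock protein, read 9.73, 9.41, 10.41 and 10.09, higher in both labelled KO arrays as Ace was. Ly6e, Fn1 and Cx3cr1 ranged over less than 1 and were not matched.

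The promoters of 7 of the 10 genes were in the RefSeq table, in 11 windows of 250 bases, with Ly6a, Ly6e and Fn1 not listed. On both strands, the interferon-response core GAAANNGAA (in 7.13% of all windows), the STAT element TTCNNNGAA (7.02%) and the Nr4a element AAAGGTCA (1.34%) had no match in any of them. The C/EBP letters TTGCNNAA, in 9.56% of windows, matched once, at -12 to -5 of a second Plac8 start (chr5:100563097-100563346). Besides the Ly6c2 match shown above, its second start (chr15:75111938-75112187) holds GAGGAAGT again at -8 to -1. No letters searched were found in the windows of Ms4a4c, Vcan, Cx3cr1 or Ace.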

How the data were processed

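Total RNA of sorted hepatic macrophages was isolated with TRIzol, amplified from 5 ng (WT Pico kit) and put on 4 arrays, per the labels' protocols. Deposited values are log2 and gene-level from Expression Console, per the labels, and the submitters' processing notes name RMA. No software version or annotation build was given in the sources used here. The log2 scale was read from the values (1.04 to 13.35), and precision is limited by the number of arrays.

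Of 41345 probe sets, 23521 had 1 symbol, 1814 several and 16010 none listed, and 23328 were matched to RefSeq (GRCm38.p6) by Entrez ID. For 1082 of 22180 genes with several probe sets, the one with the highest 4-array mean was used. Pairs of arrays were compared by difference where the brighter level was at least 6, and have no p-value. Averaged effects came from limma 3.58.1 (R 4.3.3), fraction plus label with a trend on level, over 5306 genes, with Benjamini-Hochberg adjusted p under 0.05. The limma step was tested on simulated data. Other steps used Python 3.11.15, pandas 2.3.3, statsmodels 0.14.6, Biopython 1.88 and matplotlib 3.10.9. Alternatives were other scalings, floors, probe set rules and models.

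The 10 genes and 18 gene lists were chosen with earlier results of these data known. Named genes are the 10, Ptges, up to 4 measured members of a list with the largest difference in a comparison, and the 3 nearest genes of each gene at a level of 6 with a range of 1 or more. Ccr2, Lyz2, Adgre1, Fcgr1, Itgal, Itga4, Cx3cl1, Adam10, Adam17, Agt, Ly6g, Nr4a1 and Maf were described further by choice after their values were seen.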

Additional observations from a re-analysis of the deposited data

Results flagged for a closer look

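For 4 genes the label difference had opposite signs in the 2 fractions, each from 1 array a group, and the difference between the fractions was not tested. For Ms4a4c the KO label minus WT was 0.97 in Ly6C-hi and -0.02 in Ly6C-low, a difference of 0.99. For Plac8 the values were 0.93 and -0.01, a difference of 0.94, and the Ly6C-low sign turned with lowess (0.04). For Vcan they were 0.37 and -0.47, a difference of 0.84, with both Ly6C-low arrays below the background guide. For Ly6e they were -0.07 and 0.03, a difference of -0.10, and all 3 signs turned when the arrays were centred.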

How the results depend on the processing

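Scaling moved the counts of genes past 2-fold. For the fractions in WT the count, with Ly6c2 included, was 2 as deposited and 1 with the arrays centred and with quantile normalisation. Between the labels in Ly6C-hi it was 1 as deposited, 6 centred, 6 with quantile normalisation and 5 with lowess. The difference of differences reached 1 for 0 genes as deposited, 6 centred, 4 with quantile normalisation and 2 with lowess. Leaving out Ly6c2, which the gate selects on, Plac8 alone passed limma for the fraction as deposited. Ms4a4c was added with the arrays centred, quantile normalised or lowess normalised. Plac8 was lost with no floor and with the label left out of the model. The label passed for 0 of the genes tested in every alternative run. Over single genes, 103 of 135 pairwise values moved by less than 0.36 (log2), the robust SD across genes, and 32 by more, leaving aside the mean of probe sets, which cannot move genes with 1 probe set, and 119 of 124 averaged effects kept their side of the threshold. Among all genes, limma for the fraction called 138 higher and 221 lower as deposited, 288 and 318 centred, 254 and 319 quantile normalised, 297 and 310 with lowess, 116 and 119 with a floor of 7, 7 and 67 with none, 129 and 213 with the mean of probe sets, 33 and 137 without the label, and 144 and 292 without the trend. For the label it called 1 and 16 as deposited, 1 and 0 centred, 1 and 9 quantile normalised, 3 and 31 with lowess, 2 and 20 with a floor of 7, 1 and 12 with the mean of probe sets, 0 and 0 with no floor or 1 factor, and 1 and 5 without the trend. No paired analysis was possible because each group holds 1 array and so has no replicate numbers. The fit of fraction plus label already compares the fractions within each label. Leaving out an array leaves 0 residual degrees of freedom, and for 2 arrays against 2 the smallest two-sided exact permutation p is 0.333.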
